A study of Homo sapiens with 13 samples.

Results

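The genes described here are 37 genes of DNA replication and S phase, the stage of the cell cycle in which the genome is copied. The rule that picks their probe sets uses gene names and overall brightness and no difference between groups: every probe set whose platform gene symbol was on the list was taken, and the probe set with the highest mean log2 signal over all arrays stood for its gene. All 37 had a probe set, and all 37 were bright enough to be tested, of 7731 genes tested and 11963 genes with a probe set of their own. The study followed MCF10A cells, an immortalised line of human breast epithelium that needs EGF and serum factors to grow, after stimulation. Arrays were made at 20, 40, 60, 120, 240 and 480 min after EGF, at the same 6 times after a serum mixture, and from cells left unstimulated, which gives 13 arrays with 1 array per stimulus and time. The growth medium given for all 13 arrays contained EGF and horse serum. All cells, the unstimulated ones included, had been kept without serum for 24 h. The serum mixture is horse serum together with insulin, cholera toxin and hydrocortisone, and is called serum below. EGF is epidermal growth factor, the ligand of the EGF receptor. Signals under 20 made up 33.3% of probe sets on 1 array, serum at 20 min, and between 36.7% and 40.0% elsewhere. The EGF array of 20 min is named 20 min in its title and 40 min in its description, and the title was used.

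DNA replication starts at origins, where the origin recognition complex, CDC6 and CDT1 load the ring of MCM proteins onto DNA in G1 phase. In S phase CDC45 and the GINS complex turn that ring into the active helicase, polymerase alpha with its primase lays down primers, and polymerases delta and epsilon extend them on the sliding clamp PCNA. Many of these genes are transcribed under E2F factors late in G1, and resting cells that are given growth factors take many hours to reach S phase.

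That background is why the starts of these genes are shown. RefSeq promoter windows on GRCh38.p14, from 250 bases before to 50 bases after the annotated transcription start, were found for 33 of the 37 genes. In 30 of them the start is that of the gene's annotated span, and in ORC1, CDC45 and RRM2, all 3 without a match below, it is another start. They were searched on both strands for the 8-letter E2F motifs TTTCCCGC, TTTCGCGC, TTTGCCGC and TTTGGCGC. Matches were found in 18 of the 33 windows (54.5%), against 3.33% of all 27305 windows and 4.88% of the 9563 windows of genes on the array. Of 30 windows of further replication genes 26.7% held one. So did 22.2% of the windows of G1/S regulators and 12.5% of those of mitosis genes. The 33 windows held 25 matches, 17 of them starting within 60 bases of the transcription start. CCAAT, also searched on both strands, was in 63.6% of the 33 windows, against 35.7% of all windows and 37.3% of those of genes on the array. It was also in 50% of the windows of further replication genes and in 87.5% of those of mitosis genes, so it is not particular to this list. The median GC content was 67.3% in the 33 windows, 64% in windows of genes on the array and 58.3% in all windows. Below are the window with the most matches (MCM6), those of CDC6 and E2F1, which are discussed for 480 min, that of the clamp gene PCNA, and that of FEN1, where no match was found. Each runs 5′ to 3′ along the gene's own strand, and capitals mark motif matches on either strand, the positions being counted from the transcription start.
MCM6 promoter (chr2:135876394-135876693, - strand): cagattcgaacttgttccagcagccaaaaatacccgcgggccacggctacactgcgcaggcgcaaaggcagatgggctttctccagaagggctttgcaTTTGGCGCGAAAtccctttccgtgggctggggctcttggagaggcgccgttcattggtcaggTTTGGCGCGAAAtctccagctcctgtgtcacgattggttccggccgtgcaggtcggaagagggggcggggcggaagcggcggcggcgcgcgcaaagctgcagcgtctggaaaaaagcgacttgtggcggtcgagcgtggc
CDC6 promoter (chr17:40287629-40287928, + strand): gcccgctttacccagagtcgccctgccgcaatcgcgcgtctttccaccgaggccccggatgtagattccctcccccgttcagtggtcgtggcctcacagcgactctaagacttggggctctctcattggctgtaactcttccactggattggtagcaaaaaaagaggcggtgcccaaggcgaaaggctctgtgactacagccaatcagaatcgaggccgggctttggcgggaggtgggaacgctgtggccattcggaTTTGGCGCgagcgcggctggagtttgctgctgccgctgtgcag
E2F1 promoter (chr20:33686336-33686635, - strand): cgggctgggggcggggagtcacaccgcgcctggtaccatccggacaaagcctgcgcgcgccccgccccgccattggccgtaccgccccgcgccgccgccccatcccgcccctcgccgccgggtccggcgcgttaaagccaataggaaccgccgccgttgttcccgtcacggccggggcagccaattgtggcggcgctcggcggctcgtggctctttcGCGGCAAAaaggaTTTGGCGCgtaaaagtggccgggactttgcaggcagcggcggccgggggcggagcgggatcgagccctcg
PCNA promoter (chr20:5126573-5126872, - strand): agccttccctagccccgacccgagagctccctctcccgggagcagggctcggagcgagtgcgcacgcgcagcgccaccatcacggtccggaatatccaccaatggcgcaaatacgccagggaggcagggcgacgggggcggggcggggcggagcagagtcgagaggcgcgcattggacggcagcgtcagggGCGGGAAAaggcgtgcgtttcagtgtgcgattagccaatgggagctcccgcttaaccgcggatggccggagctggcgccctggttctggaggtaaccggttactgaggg
FEN1 promoter (chr11:61792661-61792960, + strand): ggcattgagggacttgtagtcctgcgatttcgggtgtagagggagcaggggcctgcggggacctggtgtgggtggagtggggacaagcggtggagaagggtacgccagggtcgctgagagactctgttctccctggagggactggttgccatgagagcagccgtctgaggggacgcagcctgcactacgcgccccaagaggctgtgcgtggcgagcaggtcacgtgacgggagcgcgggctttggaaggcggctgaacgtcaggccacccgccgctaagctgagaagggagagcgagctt
In MCM6 the matches start at -152, -148, -90 and -86, and each neighbouring pair overlaps, a match on one strand running into a match on the other. The CDC6 match starts at 8, just inside the transcript, the PCNA match at -59, and the E2F1 matches at -33 and -20. A match describes letters in this window and not binding. The 18 genes with a match had a median late minus early log2 difference of 0.09 and the 15 without had 0.14, in the comparison described next.

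On the probe sets used, most of the replication genes differed little between the early and the late arrays. Late arrays (240 and 480 min, both stimuli, n = 4) were set against early arrays (20, 40 and 60 min, both stimuli, n = 6), which asks what had changed by the last hours of the course. Levels are log2 of the MAS5 signal plus 6, quantile normalized, and differences are on that scale, which understates changes of dim genes. Arrays of different times within a stimulus serve as the replicates here, so these p-values measure only the spread between such times on 10 arrays. In the comparisons of single times and of EGF with serum below, arrays of different times and stimuli take that part. No stimulus and time was repeated. Of the 37 genes, 1 passed the limma test at an adjusted p under 0.05, the flap endonuclease gene FEN1, and it rose. That is 2.7% of the 37 genes, where 5.98% of all genes tested were called and 2.52% were called higher. Without adjustment 5 of the 37 had p under 0.05 (13.5%), against 25.5% of all genes. The median difference was 0.10 over the 37 genes and 0.03 over all genes tested, with a range over the 37 from -0.29 in PRIM1 to 0.63 in FEN1. Differences above 0 were found for 30 of the 37 genes (81.1%), against 54.1% of all genes, a count on which no test was made. The 95% intervals, not adjusted for the number of genes, lay within a 1.5-fold change either way for 33 of the 37 genes, the others being FEN1, CDC6, ORC1 and E2F1. These are whole cultures, in which fewer cells that express a gene and less RNA per cell cannot be told apart.

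**Figure D1:**
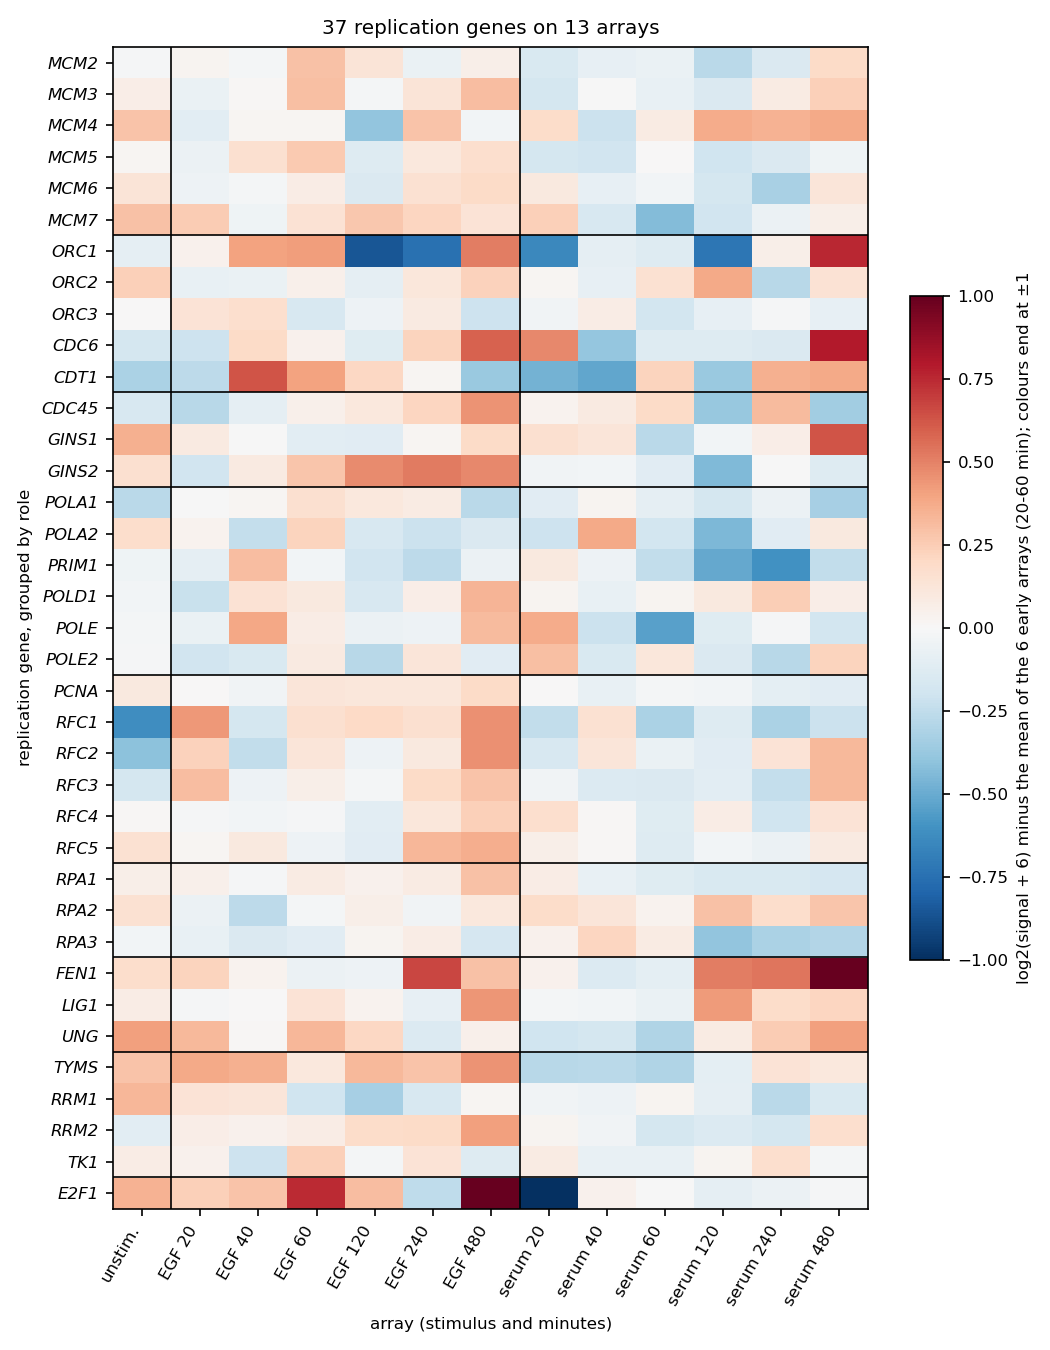
Heat map of the 37 genes (rows, grouped by role) on the 13 arrays (columns), with colour giving the log2 level minus the gene's mean on the 6 early arrays; colours end at 1 either way. The FEN1 row is higher on each of the 4 late arrays than on any of the 6 early arrays, least so with EGF at 480 min. The serum array of 120 min is also high in that row, and most rows stay pale.

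**Figure D2:**
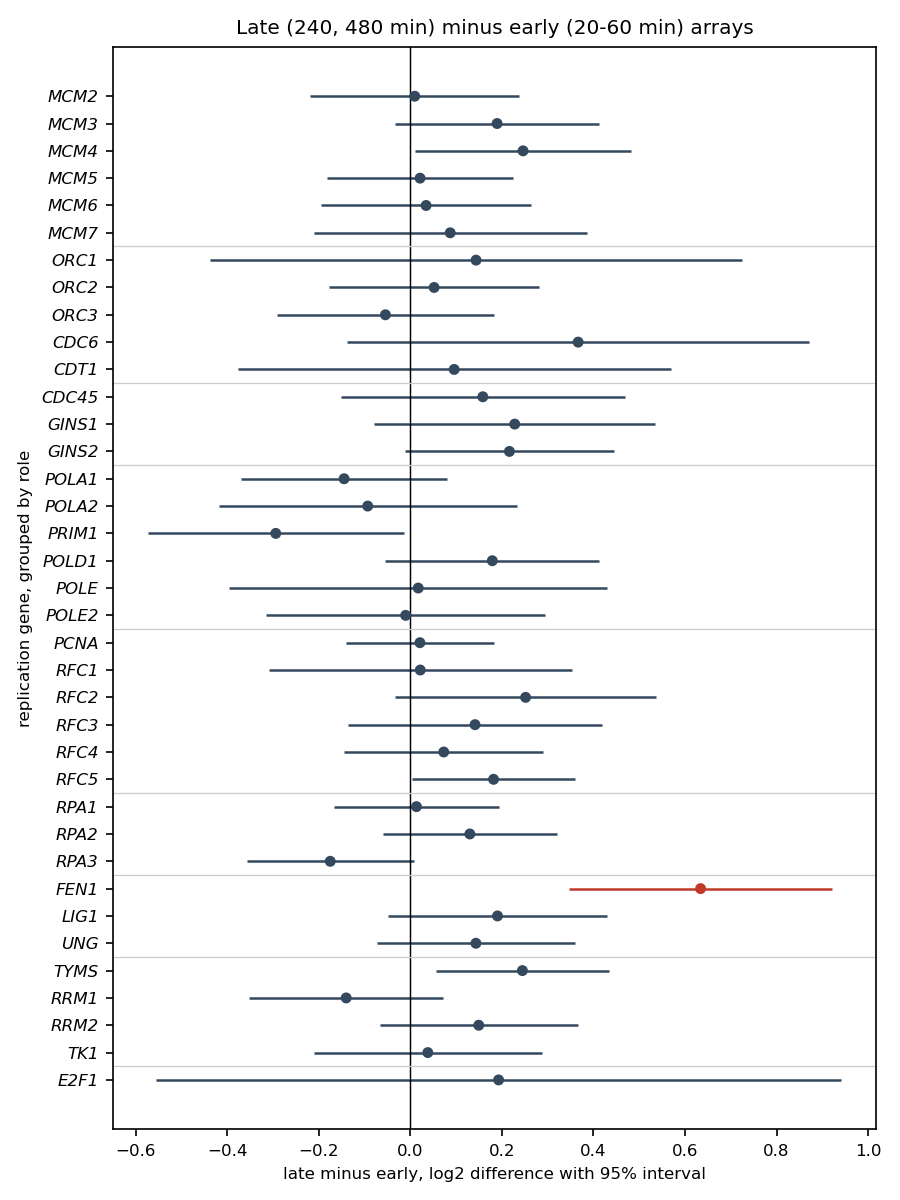
Late minus early log2 difference (horizontal axis) of each of the 37 genes (rows, grouped by role) with its 95% interval from limma. FEN1, at 0.63, is the gene past the adjusted threshold, and PRIM1 is lowest at -0.29.

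MCM2 to MCM7 encode the 6 subunits of the replicative helicase. None passed the adjusted threshold in the late minus early comparison. Their differences were above 0 in 6 of 6 and small, with a median of 0.06. On the unstimulated array MCM4 had a log2 level of 7.96. At 20, 40, 60, 120, 240 and 480 min it was at 7.57, 7.69, 7.69, 7.27, 7.95 and 7.65 after EGF and at 7.86, 7.46, 7.75, 8.04, 8.01 and 8.05 after serum. The late arrays were thus high in 3 of 4, the EGF array of 480 min lying among the early ones, and the groups overlapped. MCM4 differed by 0.25 (SE 0.10, adjusted p = 0.180), the largest of the 6. The others ran from 0.01 in MCM2, with an interval from -0.22 to 0.24, to 0.19 in MCM3. MCM6, whose promoter holds the most motif matches, differed by 0.03.

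Among the genes of origin recognition and loading (ORC1, ORC2 and ORC3 for subunits of the recognition complex, and the loaders CDC6 and CDT1), 0 of 5 passed and 4 were above 0, with a median of 0.10. The log2 level of CDC6 was 7.03 without stimulus. Along the 6 times it was 7.01, 7.40, 7.26, 7.09, 7.43 and 7.80 after EGF, and 7.69, 6.83, 7.08, 7.08, 7.07 and 8.0 after serum. Both arrays of 480 min were high, at 7.80 with EGF and 8.0 with serum, above every other array. The array of 20 min after serum came next at 7.69, above both arrays of 240 min, so the late and early groups overlapped. CDC6 differed by 0.37 late minus early (SE 0.22, adjusted p = 0.329), or 0.13 without serum 480 min and 0.60 without serum 240 min. CDT1 differed by 0.10, ORC1 by 0.14, ORC2 by 0.05 and ORC3 by -0.05.

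CDC45, GINS1 and GINS2, whose proteins join the MCM ring to make the active helicase, were all above 0 in late minus early, and none of the 3 passed. GINS1 stood at a log2 level of 8.08 without stimulus. Its levels over the 6 times were 7.81, 7.72, 7.62, 7.61, 7.74 and 7.91 with EGF and 7.88, 7.84, 7.45, 7.69, 7.79 and 8.35 with serum. Serum at 480 min was the highest of the 13 arrays, and the unstimulated array was second. GINS1 differed by 0.23 late minus early (SE 0.14, adjusted p = 0.319), or 0.086 without serum 480 min and 0.37 without serum 240 min. GINS2 differed by 0.22 and CDC45 by 0.16.

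The 6 genes of primase and polymerases were the role with the lowest median, -0.05, and 2 of 6 were above 0. None passed. PRIM1 encodes the catalytic subunit of primase, which makes the RNA primer. On the unstimulated array PRIM1 had a log2 level of 7.25. At 20, 40, 60, 120, 240 and 480 min it was at 7.20, 7.61, 7.27, 7.10, 7.03 and 7.24 after EGF and at 7.40, 7.25, 7.06, 6.78, 6.69 and 7.05 after serum. In late minus early, 3 of the 4 late arrays lay below all 6 early arrays and the EGF array of 480 min lay among them. PRIM1 differed by -0.29 (SE 0.12, adjusted p = 0.175). POLA1 and POLA2, the catalytic and the second subunit of polymerase alpha, differed by -0.14 (-0.23 without EGF 240 min, -0.06 without EGF 480 min) and -0.09. POLE and POLE2, subunits of the leading strand polymerase epsilon, differed by 0.02 and -0.01, and POLD1, the catalytic subunit of polymerase delta, by 0.18.

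PCNA, the sliding clamp, and RFC1 to RFC5, the loader that places it on DNA, were above 0 in 6 of 6, with a median of 0.11, and 0 of 6 passed. The log2 level of RFC2 was 6.32 without stimulus. Along the 6 times it was 6.96, 6.48, 6.86, 6.68, 6.83 and 7.19 after EGF, and 6.57, 6.85, 6.67, 6.62, 6.86 and 7.05 after serum. The unstimulated array was the lowest and both arrays of 480 min were the highest, while the arrays of 240 min lay within the early range. RFC2 differed by 0.25 late minus early (SE 0.13, adjusted p = 0.241), or 0.16 without EGF 480 min. PCNA differed by 0.02, with an interval from -0.14 to 0.18, which bounds its change on these arrays to well under 1.5-fold.

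RPA1, RPA2 and RPA3 encode the complex that coats single-stranded DNA at the fork, and none of the 3 passed. RPA3 stood at a log2 level of 8.64 without stimulus. Its levels over the 6 times were 8.58, 8.51, 8.55, 8.69, 8.74 and 8.50 with EGF and 8.70, 8.88, 8.74, 8.27, 8.34 and 8.37 with serum. The 2 late serum arrays were low, and so was the serum array of 120 min, while the EGF array of 240 min lay within the early range. RPA3 differed by -0.18 late minus early (SE 0.08, adjusted p = 0.209), RPA2 by 0.13 and RPA1 by 0.01.

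FEN1 removes the flaps that carry primers on the lagging strand, LIG1 is the ligase that seals the fragments, and UNG takes uracil out of new DNA. On the unstimulated array FEN1 had a log2 level of 8.40. At 20, 40, 60, 120, 240 and 480 min it was at 8.45, 8.26, 8.17, 8.18, 8.89 and 8.52 after EGF and at 8.27, 8.09, 8.13, 8.74, 8.76 and 9.27 after serum. Each of the 4 late arrays was above each of the 6 early arrays, a separation found upward in 1 of the 37 genes and in 3.82% of all genes tested, and downward in 0 of the 37 genes and in 4.05%. With EGF the level was 8.18 at 120 min and highest at 240 min, and after serum it was 8.74 at 120 min and highest at 480 min, each on a single array. FEN1 averaged 8.86 ± 0.31 on the late arrays (SD, n = 4) and 8.23 ± 0.13 on the early arrays (SD, n = 6), a difference of 0.63 (SE 0.13, interval 0.35 to 0.92, 1.55-fold, limma adjusted p = 0.0272). The unstimulated level of 8.40 lay above the early mean. Against that 1 array, FEN1 was 1.40-fold higher at 240 min and 1.08-fold at 480 min after EGF, and 1.28-fold and 1.82-fold after serum. Within serum it rose by 0.85 (SE 0.18, adjusted p = 0.0446), making 1 of 37 genes called there, against 2.64% of all genes called and 0.983% called higher. Within EGF the difference was 0.41 (SE 0.18, adjusted p = 0.300; 0.23 without EGF 240 min and 0.60 without EGF 480 min), with 0 of 37 called against 0.44% of all genes. The EGF minus serum difference of these changes was -0.44 (SE 0.25, interval -1.01 to 0.14, adjusted p = 0.582; -0.69 without serum 240 min and -0.19 without serum 480 min), with 0 of 37 called against 0.116%. LIG1 differed by 0.19 late minus early and UNG by 0.14, and neither passed.

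UNG had the lowest adjusted p of the 37 genes in that stimulus difference of changes. The log2 level of UNG was 7.0 without stimulus. Along the 6 times it was 6.91, 6.60, 6.92, 6.80, 6.45 and 6.63 after EGF, and 6.39, 6.41, 6.29, 6.67, 6.84 and 6.99 after serum. The late arrays were low within EGF, at 6.45 and 6.63, and high within serum, at 6.84 and 6.99, so that all 3 early EGF arrays but that of 40 min lay above the late ones, and all 3 early serum arrays lay below. The difference of changes was -0.82 (SE 0.19, adjusted p = 0.178), and it did not pass. ORC1 and CDT1 had larger and less certain differences of changes, at -1.10 (SE 0.51, adjusted p = 0.492) and -1.06 (SE 0.42, adjusted p = 0.428).

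The FEN1 call was close to the threshold. Leaving out 1 of the 10 arrays that enter it ended the call in 6 cases: without EGF 40 min (adjusted p = 0.0666), EGF 60 min (0.0513), EGF 240 min (0.0840), serum 40 min (0.0679), serum 60 min (0.0598) or serum 480 min (0.0717), with differences from 0.51 to 0.63 in those cases. The serum call ended in 9 of 10 cases and was kept without serum 240 min, with adjusted p = 0.0620 without EGF 20 min, 0.0717 without EGF 40 min, 0.0633 without EGF 60 min, 0.0566 without EGF 240 min or EGF 480 min, 0.0716 without serum 20 min, 0.130 without serum 40 min, 0.105 without serum 60 min and 0.215 without serum 480 min. Leaving out an EGF array leaves the serum value at 0.85 and changes only the shared spread. The call also ended without the filter on dim genes (adjusted p = 0.0760), without both arrays of 20 min (0.0516), with 120 min counted as late (0.0619) and with time as a block (0.0868). The serum array of 20 min, which stands apart in the share of low signals, changed the late minus early value to 0.66 when left out (adjusted p = 0.0389). FEN1 has a second, dimmer probe set, whose late minus early difference was 0.12, so the probe sets disagree in size, and the mean of both gave 0.38 (adjusted p = 0.0904).

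TYMS makes thymidylate, RRM1 and RRM2 are the large and the small subunit of ribonucleotide reductase, which makes deoxyribonucleotides, and TK1 salvages thymidine. The log2 level of TYMS was 10.13 without stimulus. Along the 6 times it was 10.22, 10.20, 9.95, 10.16, 10.13 and 10.29 after EGF, and 9.57, 9.57, 9.54, 9.74, 9.98 and 9.95 after serum. All 6 EGF arrays but that of 60 min were above every serum array, and within serum the late arrays were above the early ones. TYMS differed by 0.24 late minus early (SE 0.08, adjusted p = 0.114). RRM2 differed by 0.15, TK1 by 0.04 and RRM1 by -0.14, and 0 of the 4 passed.

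E2F1 is the transcription factor of the list. E2F1 stood at a log2 level of 6.30 without stimulus. Its levels over the 6 times were 6.19, 6.24, 6.70, 6.26, 5.70 and 7.05 with EGF and 4.64, 6.0, 5.95, 5.86, 5.89 and 5.94 with serum. The EGF array of 480 min was the highest and the serum array of 20 min was the lowest by a wide margin, and the early and late groups overlapped. E2F1 differed by 0.19 late minus early (SE 0.33, interval -0.56 to 0.94, adjusted p = 0.759). The sign turned without the serum array of 20 min (-0.03) and without the EGF array of 480 min (-0.14), so the E2F1 value has no settled direction.

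Of 120, 240 and 480 min, set against the early arrays, the median of the 37 genes was lowest at 120 min and highest at 480 min. Array by array, the median of the 37 genes relative to the unstimulated array was -0.054, -0.057, 0.061, -0.054, 0.058 and 0.12 along the 6 times with EGF, and -0.049, -0.14, -0.14, -0.13, -0.13 and -0.0025 with serum, so the arrays of 40 min lay no higher than those of 120 min. Each later time was set against the early arrays (n = 2 against n = 6), and these comparisons share the early arrays. At 120 min 0 of 37 genes were called, as were 0% of all genes, for which 852 had an unadjusted p under 0.05, and the median was -0.06 over the 37 genes and 0.00 over all genes, with 13 of the 37 above 0 (35.1%, against 49.9%). At 240 min 0 of 37 were called, against 0.815% of all genes, with a median of 0.01 over the 37 and over all genes, and 21 of the 37 above 0 (56.8%, against 52%). At 480 min 0 of 37 were called, against 1.32% of all genes, and the medians were 0.17 over the 37 genes and 0.04 over all genes. Above 0 at 480 min were 30 of the 37 genes (81.1%), against 55.3% of all genes. With unadjusted p under 0.05, 9 were higher (24.3%, against 10.1% of all genes) and 1 was lower (2.7%, against 9.86%).

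**Figure D3:**
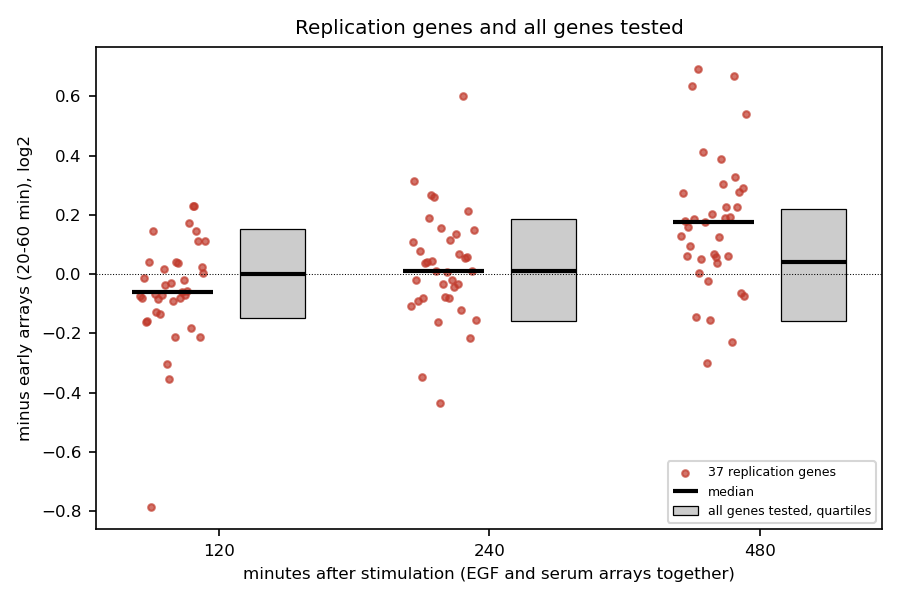
Difference from the early arrays in log2 (vertical axis) at 120, 240 and 480 min, EGF and serum arrays together: points are the 37 genes, the black bar their median, and the box the quartiles of all genes tested. The median of the 37 genes is -0.06 at 120 min, 0.01 at 240 min and 0.17 at 480 min.

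The largest differences at 480 min were those of CDC6 (0.69, SE 0.21, adjusted p = 0.119), FEN1 (0.67, SE 0.20, adjusted p = 0.111) and ORC1 (0.63, SE 0.29, adjusted p = 0.252). This order holds for the probe sets used. The second probe set was at 0.46 for CDC6 and 0.25 for FEN1, and at 0.55 for RRM2, 0.54 for MCM7 and 0.53 for RFC3. The ORC1 level was 5.89 with EGF and 6.12 with serum at 480 min, whereas at 120 min it was 4.52 and 4.65, the lowest value with each stimulus. ORC1 is dim: these low values, and 4.62 with EGF at 240 min, lie under 4.68, the cut used for dim genes. The depth of its dip is therefore uncertain. CDC6, ORC1 and RFC2 were higher on both arrays of 480 min than on the 11 other arrays, 3 of 37 genes (8.11%), against 3.63% of all genes tested, and 0 were lower, against 1.85%. For RFC2 this rests on the probe set used, whose difference at 480 min was 0.39, since its second, nearly as bright, was at 0.0079. Against the early arrays alone, 8 genes were higher on both arrays of 480 min (21.6%, against 10.5% of all genes), namely CDC6, FEN1, GINS1, LIG1, MCM6, ORC1, RFC2 and RRM2. POLA1 and RPA3 were lower (5.41%, against 8.25%). Of the 8, GINS1 with EGF (7.91, against 8.08) and MCM6 with serum (9.43, against 9.44) did not exceed the unstimulated array at 480 min. The serum array of 480 min carries much of the FEN1 value, which was 0.30 without it and 1.04 without the EGF array of 480 min. Lowest at 480 min was POLA1 at -0.30 (SE 0.10, adjusted p = 0.139). With a variance trend and robust variances CDC6 (adjusted p = 0.0492) and FEN1 (adjusted p = 0.0355) were called at 480 min.

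**Figure D4:**
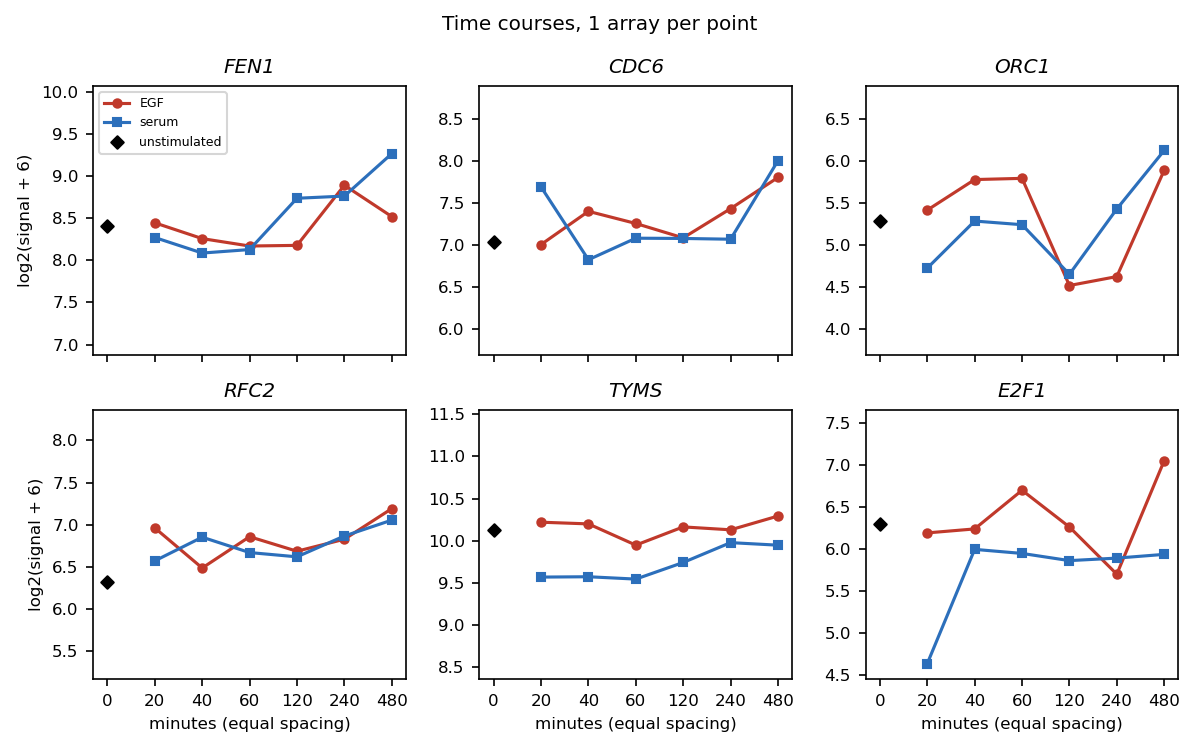
Time courses of selected genes, with log2 level on the vertical axis and minutes, equally spaced, on the horizontal axis, for EGF (red circles), serum (blue squares) and the unstimulated array (black diamond, at 0); every point is 1 array. CDC6 and ORC1 are highest at 480 min with both stimuli, and E2F1 is lowest at 20 min after serum.

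Against the unstimulated array, which has no replicate and was assumed to vary like the others, 0 of 37 genes were called early (against 0.0129% of all genes), with a median of -0.06, and 0 of 37 at 480 min (against 0.0517%), with a median of 0.06 and 5 at an unadjusted p under 0.05 (13.5%, against 12.2%). Taken array by array, with no test, 6 of the 37 genes were at least 1.5-fold higher at 480 min after EGF (16.2%, against 7.76% of all genes), CDC45, CDC6, E2F1, ORC1, RFC1 and RFC2, and 0 were as much lower, against 7.79%. After serum 5 were (13.5%, against 9.46%), CDC6, CDT1, FEN1, ORC1 and RFC2, and 0 were lower, against 9.83%. Among the earlier arrays the counts lower were largest on 3. At 60 min after serum 0 were as much higher (against 7.2% of all genes) and 4 lower (10.8%, against 7%). At 120 min after EGF 1 was higher (against 7.86%) and 3 lower (8.11%, against 8.32%), and at 120 min after serum 0 were higher (against 8.24%) and 3 lower (8.11%, against 7.61%). At 480 min 23 of the 37 genes were above the unstimulated array after EGF and 17 after serum. With both arrays of 480 min averaged, 24 of the 37 were above it (64.9%, against 53.3% of all genes). The share of all genes is not given for each array alone, so the counts of 23 and 17 have no background of their own. RFC1 was above the unstimulated array from 20 min on, at a level of 7.75 after EGF and 7.07 after serum at 20 min, against 6.70 without stimulus.

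EGF was compared with serum over the 6 times, each time being a pair. Of the 37 genes 0 were called, against 0.129% of all genes, and with unadjusted p under 0.05 were 8 (21.6%, against 20.5%). The median was 0.10 over the 37 genes and 0.01 over all genes, and 27 genes were above 0 (73%, against 51.5%). MCM3, MCM5, MCM7, RRM2 and TYMS were higher with EGF in 6 of 6 pairs, 5 of 37 genes (13.5%), against 6.08% of all genes, and RPA2 was lower in 6 of 6 (2.7%, against 6.91%).

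TYMS differed most clearly, with EGF minus serum pairs of 0.65, 0.63, 0.40, 0.42, 0.15 and 0.35 in order of time. Every pair was above 0, and the mean difference was 0.43 (SE 0.09, interval 0.23 to 0.64, adjusted p = 0.0717). It was called under 3 of the alternatives, an offset of 24 (adjusted p = 0.0458), a filter at the 60th percentile (0.0283) and robust variances (0.00405), the range over all alternatives being 0.00405 to 0.192. E2F1 had the largest difference, 0.64 (SE 0.21, adjusted p = 0.166), with pairs of 1.55, 0.24, 0.75, 0.40, -0.19 and 1.11, and 0.46 without the 20 min pair. The serum array of that pair, at a level of 4.64, lay under the 4.68 used as the cut for dim genes. The second, dimmer probe set of E2F1 was at 0.20, so the size depends on the probe set. RPA2 was at -0.22 (SE 0.07, adjusted p = 0.170). GINS2 was at 0.40 (adjusted p = 0.179), RFC1 at 0.39 (0.183) and MCM7 at 0.25 (0.208), and after RPA2 came FEN1 at -0.13, GINS1 at -0.10 and POLE2 at -0.10. Without the 480 min pair FEN1 was at -0.0085 and GINS1 at -0.030, without the 20 min pair POLE2 was at -0.019, and FEN1's second probe set was at 0.09, so FEN1 is given no direction either. MCM4 was at -0.23 on the brightest of its probe sets, and its other probe sets were at 0.44, 0.04 and 0.06, so no direction is given for it.

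**Figure D5:**
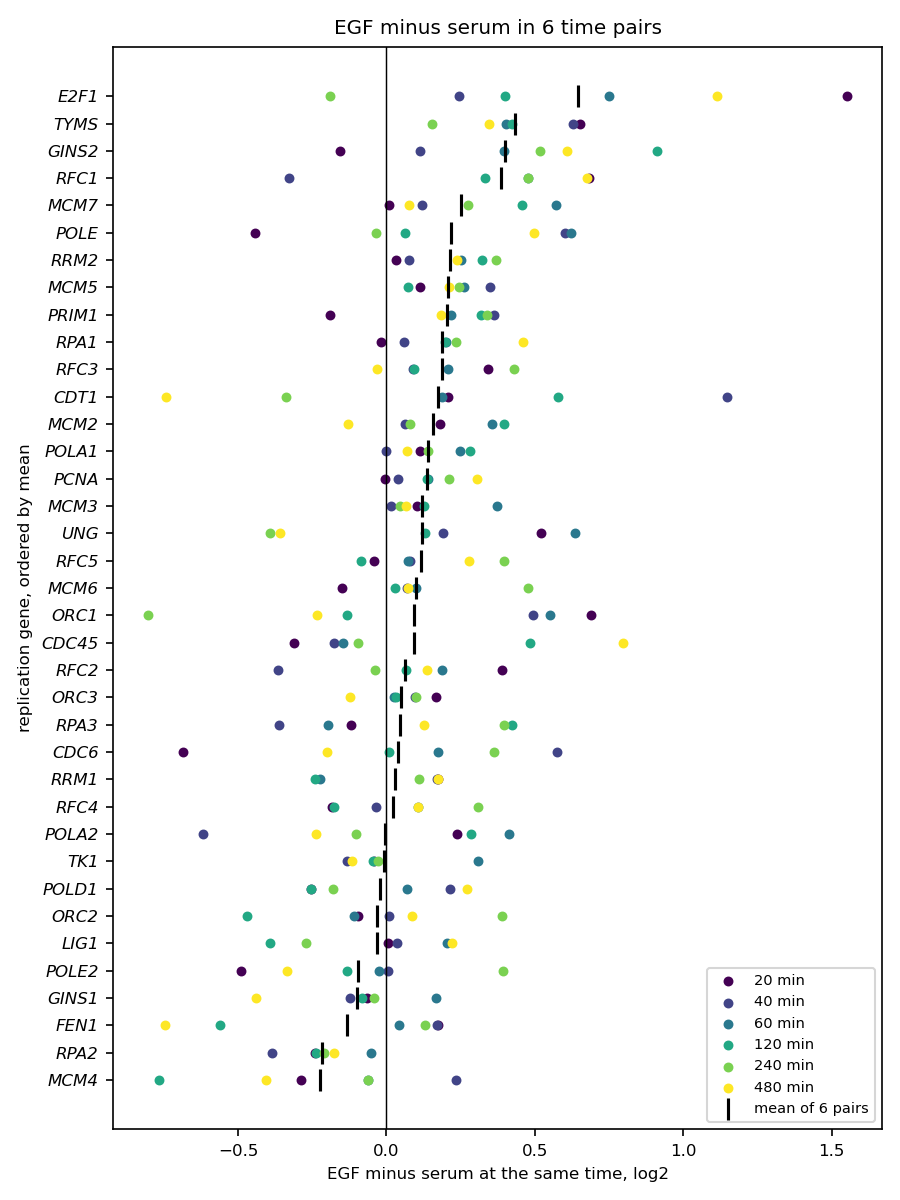
EGF minus serum log2 difference (horizontal axis) of the 37 genes (rows, ordered by the mean of the 6 pairs, black bar) at each of the 6 times (points, coloured by time). The 6 points of TYMS lie to the right of 0 and those of RPA2 to the left.

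Neighbouring lists were read the same way. Of all genes tested, 2.52% were called higher and 3.45% lower late minus early. Of 31 further replication genes tested, 0 were called, with a median of 0.06 and 22 above 0. The largest were GINS4, the fourth GINS subunit, at 0.53 (adjusted p = 0.0944), and ORC6 at 0.41 (adjusted p = 0.0717), and SLBP, which binds histone mRNA, was at 0.32 (adjusted p = 0.0551). At 480 min their median was 0.26, with RECQL4, a helicase of replication initiation, at 0.85 (adjusted p = 0.0581) and MCM10, an initiation factor, at 0.68 (adjusted p = 0.0843). Of 22 G1/S regulators, 2 rose and 0 fell late minus early: CCND1, cyclin D1, by 0.87 (SE 0.11, adjusted p = 0.00695) and CCNE2, a cyclin E, by 0.39 (SE 0.08, adjusted p = 0.0368). CDKN1C, a CDK inhibitor, was the regulator that passed in EGF minus serum, at -1.85 (SE 0.20, adjusted p = 0.0271), 1 of 22, against 0.129% of all genes. Of 18 mitosis genes 0 were called, with a median of -0.12.

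Markers of cell types were read on the same arrays. Basal keratin and other basal markers (6 of 9 with a probe set) were bright on every array. Their summed signals were 23373 to 26353 late and 24528 to 26424 early. The luminal markers (7 of 7 with a probe set) summed to 3716 to 4664 late and 3501 to 4159 early. Of these, KRT18, KRT8 and GATA3 were bright, with mean log2 levels of 11.65, 9.35 and 7.40 late and 11.57, 9.15 and 7.57 early. PGR and KRT19 were under a signal of 20 on all arrays, and ESR1 and FOXA1 averaged under the cut for dim genes. Fibroblast markers (5 of 5 with a probe set, COL3A1 and LUM under 20 on all arrays) summed to 191 to 265 late and 361 to 485 early, with DCN falling by 0.85 (adjusted p = 0.0116), while the mean log2 levels of COL3A1 (3.83 late, 3.77 early) and LUM (2.89 late, 2.74 early) were not lower late. Leukocyte markers (4 of 4, PTPRC under 20) summed to 121 to 158 late and 227 to 311 early, with CD14, which makes up most of that sum, falling by 0.96 (adjusted p = 0.00838). The dimmer CD3E averaged 4.25 late and 3.64 early, PTPRC 3.54 late and 3.62 early, and CD79A 3.58 late and 4.57 early, so the markers of this list did not all move one way. Their part in the replication results was not tested. The response genes FOS, EGR1, EGR3 and CCN2 differed by -3.09, -2.38, -2.92 and -2.07 late minus early, and all 4 were called.

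Other probe sets were measured for 14 of the 37 genes, 55 probe sets in all, and some gave other sizes. Late minus early, the second probe set of MCM7 was at 0.51 against 0.09 for the one used, that of RRM2 at 0.44 against 0.15 and that of RFC3 at 0.46 against 0.14. Of 16 other probe sets bright enough to be tested, 4 had the opposite sign: RFC1 at -0.17 against 0.02, MCM5 at -0.10 against 0.02, RPA1 at -0.06 against 0.01 and RFC5 at -0.06 against 0.18. The counts of genes above 0 given for the MCM genes, the clamp and its loader and the 37 genes therefore hold for the probe sets used.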

How the data were processed

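RNA of MCF10A cells was measured on 13 Affymetrix arrays. The authors deposited an intensity for each probe set on each array, the linear MAS5 signal, per the submitters' processing notes; no version is given in the sources used here. Of 22277 probe sets 62 were controls, 19064 had 1 gene symbol in the platform annotation, 1043 several and 2108 none; 19052 were matched by Entrez number. Signals were taken as log2(signal + 6) and quantile normalized, because the array medians ran from 5.40 to 5.70. Each gene was its brightest probe set, kept at or above the 40th percentile of means (4.68). Models were fitted in limma 3.58.1 (R 4.3.3; lmFit, eBayes): stimulus and phase cells for late minus early (6 residual degrees of freedom), time levels plus stimulus for single times (7), and EGF minus serum with time as a block (5), each on the arrays concerned. Benjamini-Hochberg adjustment ran over all 7731 genes within each comparison, threshold 0.05, and the procedure was tested on simulated data. The number of arrays limits the precision. All genes and lists, and the rule naming genes, were chosen with earlier results of these data known. That rule names every member by role, gives array values for the largest late minus early difference of each role and for called members, the 5 largest each way in late minus early and EGF minus serum, and called list members or the largest. Values of other members and of the neighbouring lists beyond it were added after they were seen. Promoter windows came from RefSeq GRCh38.p14. Alternatives were the offset, normalization, filter, probe set choice, variance model, coding of time and leaving out arrays. Python 3.11.15 with pandas 2.3.3 (and numpy 2.4.6) made the tables; plotting used matplotlib 3.10.9. Probe sets with several symbols or none were left out.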

Additional observations from a re-analysis of the deposited data

Results flagged for a closer look

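In 74 groups of 4 or 6 arrays (late and early, per gene), 1 array stood further from the others than the 95% critical value of Dixon's test in 3, where chance gives about 1 in 20. MCM6 on the serum array of 240 min was at 8.98, the other late arrays being at 9.43 to 9.51. LIG1 on the EGF array of 60 min was at 6.29, the other early arrays being at 6.08 to 6.16. E2F1 on the serum array of 20 min was at 4.64, the other early arrays being at 5.95 to 6.70.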

How the results depend on the processing

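The median difference of the 37 genes stayed above 0 under every alternative run in late minus early (0.06 to 0.15) and in EGF minus serum (0.08 to 0.15). Of 704 checks of 35 named values, leave-outs of arrays that do not enter a comparison not counted, 36 changed a call or a sign. The sign turned in 5, all of values not called: E2F1 late minus early was -0.075 without both arrays of 20 min, -0.14 without EGF 480 min and -0.03 without serum 20 min, POLA2 was 0.0024 without serum 40 min, and MCM4 in EGF minus serum was 0.081 with the mean of probe sets. Over the single arrays left out, E2F1 ran from -0.14 to 0.53 and POLA2 from -0.16 to 0.0024. The cause of these and the following changes was not tested.

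Counts of all genes past the threshold moved more. In late minus early 462 genes were called, and 124 without the filter on dim genes, 766 with a filter at the 60th percentile, 921 with a variance trend and robust variances, 252 without both arrays of 20 min, 268 with 120 min counted as late and 185 with time as a block. Of the 37 genes, 0 were called there without the filter, with the mean of probe sets, without both arrays of 20 min, with 120 min as late or with time as a block, and 2 (FEN1 and TYMS) with robust variances. In EGF alone 34 genes were called, against 94 with an offset of 24, 15 without the filter, 156 with the stricter filter, 22 with the mean of probe sets, 249 with robust variances and 20 with 120 min as late. In serum alone 204 were called, against 51 without the filter, 410 with the stricter filter, 581 with robust variances, 104 without both arrays of 20 min and 103 with 120 min as late. Of the 37 genes, 0 were called in serum with an offset of 1, without the filter, with the mean of probe sets, without both arrays of 20 min or with 120 min as late, and 3 with the stricter filter (FEN1, RPA3 and UNG) or with robust variances (FEN1, RPA3 and TYMS). The stimulus difference of these changes called 9 genes, against 18 with an offset of 24, 0 without the filter, 32 with the stricter filter, 4 with the mean of probe sets, 66 with robust variances, and 0 without both arrays of 20 min or with time as a block.

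At 120 min 0 genes were called, against 2 with an offset of 1, 1 without quantile normalization, 22 with robust variances and 3 without both arrays of 20 min. At 240 min 63 were called, against 96 with an offset of 24, 11 without the filter, 151 with the stricter filter, 225 with robust variances and 27 without both arrays of 20 min. At 480 min 102 were called, against 157 with an offset of 24, 29 without the filter, 273 with the stricter filter, 384 with robust variances (2 of the 37 genes, CDC6 and FEN1) and 64 without both arrays of 20 min. Early against unstimulated, 1 gene was called, against 2 with an offset of 1, 3 without the filter, with the stricter filter or with robust variances, and 8 without both arrays of 20 min. At 480 min against unstimulated, 4 were called, against 10 with an offset of 24, 1 without the filter or without both arrays of 20 min, 13 with the stricter filter and 41 with robust variances. In EGF minus serum 10 were called, against 6 with an offset of 1 or the mean of probe sets, 156 with an offset of 24, 1 without the filter, 221 with the stricter filter, 426 with robust variances, 29 without both arrays of 20 min and 57 without the time block. With the offset of 24, the stricter filter or robust variances, 1 of the 37 genes (TYMS) was called there.

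Leaving out 1 array at a time gave 0 to 1 of the 37 genes and 138 to 462 of all genes in late minus early, 1 to 34 genes in EGF, 0 to 1 of the 37 and 29 to 204 of all genes in serum, and 0 to 9 in the stimulus difference. It gave 0 to 3 genes at 120 min, 0 to 63 at 240 min, 3 to 102 at 480 min, 0 to 2 early and 2 to 13 at 480 min against unstimulated, and 1 to 29 in EGF minus serum. The unstimulated array has no replicate, so the comparisons with it were not run without it. The labels give no replicate numbers to pair arrays by. Pairing by time was used as the block in EGF minus serum and as an alternative in late minus early.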
